A study of Homo sapiens with 4 samples.

Results

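The RNA recovered with NSUN2 from lactate-treated PANC-1 cells was described from all 48104 peaks that the authors called in the lactate immunoprecipitation (IP) library over its input, out of 143889 peaks in the lists of both conditions of the series. In RIP-seq an antibody, here anti-NSUN2, captures a protein with its bound RNA, and the RNA of the lysate, the input, is sequenced beside it. PANC-1 cells are an established line that was grown from a ductal carcinoma of the human pancreas. The wild-type cells of both lactate libraries had been given 30 mM sodium lactate for 24 h, their lysates were made in polysome lysis buffer, and the cDNA was made with a SMART-Seq kit. The experiment served to find the transcripts bound by NSUN2 when lactate is plentiful. The ddH2O arm, with its own IP and input, is not compared here. Each library was 1 library of 1 line, so no value has a replicate error, no test across cultures was possible, and intervals below are 95% Wilson intervals that cover counting error only. A library from a control antibody was not analysed here, so enrichment over input cannot be told apart from binding to antibody or beads.

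NSUN2 is a methyltransferase that puts a methyl group on cytosines of RNA, giving 5-methylcytosine (m5C). It is best known for methylating transfer RNAs, where m5C protects the tRNA from cleavage, and it also methylates vault RNAs and a subset of messenger RNAs. Proteins such as ALYREF and YBX1 bind m5C in mRNA and act in export and stability. Lactate is the end product of glycolysis, leaves and enters cells through monocarboxylate transporters, and can be joined to lysines of proteins, which is called lactylation.

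Peaks of a gene list have names and positions but few have a sequence that can be set beside them, so the mature microRNAs that lie under a peak are shown first, as short RNAs whose exact letters are known. Of 1560 microRNA hairpins in the RefSeq table of GRCh38.p14, 24 were touched by a lactate peak and 11 lay whole inside one, with 14 mature arms. The 14 arms had 14 distinct seeds, so no seed was shared. The 5 arms under the peaks of highest score are printed 5′ to 3′ with the seed, bases 2 to 8, in capitals.
hsa-miR-1825: uCCAGUGCccuccucucc
hsa-miR-4751: aGAGGACCcguagcugcuagaagg
hsa-miR-3654: gACUGGACaagcugaggaa
hsa-miR-6858-5p: gUGAGGAGgggcuggcagggac
hsa-miR-5094: aAUCAGUGaaugccuugaaccu
The first lay at chr20:32237830-32237847 on the plus strand, inside a 3′ UTR peak of POFUT1, which adds fucose to Notch receptors. That peak was 947 bases long, with a fold of 16.2 and 106 IP reads at its summit. The second lay at chr19:49933073-49933096 in an exon peak of ATF5, a stress-response transcription factor, with a fold of 6.77 and 111 IP reads. The third lay at chr7:133034860-133034878 on the minus strand in an exon peak of a gene without a symbol, with 197 IP reads and a fold of 3.89. The fourth lay at chrX:154450320-154450341 in an exon peak of FAM50A with 95 IP reads and a fold of 6.29. Only the fifth, at chr15:89850690-89850711, was in a peak that the authors assigned to the microRNA gene itself, and its 606 bases had a fold of 8.41 from 15 IP reads. In the other 4 the arm sat within a longer peak of 401 to 1038 bases on the host transcript or another gene, so these peaks cannot be told apart from signal of that transcript. In all, 6 peaks were assigned to microRNA genes.

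Some peaks lay at gene starts. Of 35116 RefSeq promoter windows, which run from 250 bases before to 50 bases after a start site, 569 were touched by a lactate peak, 303 by a peak of their own gene, and 85 held the summit of such a peak. The windows of CDV3 and SZRD1, chosen after their values were seen as the highest-scoring ones whose peak was annotated as exon, are printed on the gene's strand from RefSeq GRCh38.p14, with CNGGG, the G-rich letters around cytosines that NSUN2 methylates in mRNA, in capitals.
CDV3, chr3:133574184-133574483, plus strand: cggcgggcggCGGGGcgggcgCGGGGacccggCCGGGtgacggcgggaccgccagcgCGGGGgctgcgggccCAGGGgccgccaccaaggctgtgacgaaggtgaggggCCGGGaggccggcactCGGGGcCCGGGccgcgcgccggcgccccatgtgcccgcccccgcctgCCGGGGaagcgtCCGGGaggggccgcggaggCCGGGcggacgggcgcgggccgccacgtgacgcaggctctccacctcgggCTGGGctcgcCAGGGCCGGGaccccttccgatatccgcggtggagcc
SZRD1, chr1:16366992-16367291, plus strand: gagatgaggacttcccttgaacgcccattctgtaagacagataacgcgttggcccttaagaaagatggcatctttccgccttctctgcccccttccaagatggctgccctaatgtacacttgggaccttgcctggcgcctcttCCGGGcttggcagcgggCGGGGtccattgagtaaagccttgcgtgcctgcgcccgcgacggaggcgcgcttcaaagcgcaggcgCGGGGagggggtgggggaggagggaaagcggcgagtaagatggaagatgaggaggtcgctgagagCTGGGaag
The CDV3 summit lay 161 bases before the start site, with 67 IP reads over an input level of 7 reads and a fold of 6.69. The SZRD1 summit lay 40 bases after it, with 21 IP reads over an input level of 1.00 read and a fold of 8.73. CNGGG was found on the printed strand 15 times in the CDV3 window and 4 times in the SZRD1 window. The motif is common at gene starts: 83.2% of all windows held it on the sense strand and 82.7% on the antisense strand, against 87.1% and 82.4% of the 85 windows with a summit of their own gene. Its copies may overlap each other, and a match is only a match of letters.

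The strength of each peak was read from the number of IP reads at its summit and from the input level there, which the peak caller takes as the highest of a genome-wide background and the local input. Both were computed back from the deposited fold and p-value, by a search over whole numbers of reads. At 99.998% of the peaks the number found gave the −log10 p-value within 0.1%. At the deepest summits, that of MT-RNR2 among them, neighbouring numbers also fall within 0.1%, so reads there are approximate. Most peaks were shallow. The median summit held 7 IP reads (quartiles 5 to 13), and the fewest was 3. At 59.8% of peaks the input stood at the genome-wide background of 0.517 reads, so any local input signal under them was at or below that level. Over that background a peak of 6 IP reads had a fold of 3.76 and never a q-value below 0.05, while 7 reads, at a fold of 4.28, passed. Accordingly 42.7% of the peaks passed a q-value below 0.05, and 35.3% had a fold of at least 4. The median fold was 3.24 (quartiles 2.73 to 4.79) and the highest was 80.2. Peaks covered 14401200 bases in all, with a median of 225 bases, and 42.8% were exactly 200 bases long. In the 2000-base windows of the authors' merged table, the median lactate peak had 10 IP reads. At 3810 peaks (7.92%) the window held fewer reads than the summit computed back from the fold, and at 2244 (4.66%) fewer than 1 in 2 of them. The window fell short of the summit at 26.0% of exon peaks and 38% of 5′ UTR peaks, against 8.67% of 3′ UTR and 1.23% of intron peaks. The summit lay inside the window at all but 2 of the 3810. The cause was not tested, so summit reads and folds of exon and 5′ UTR peaks are less certain than those of introns.

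Of 5067412 IP reads summed over all summits, 80.6% lay at 1 peak, on the mitochondrial 16S ribosomal RNA MT-RNR2. MALAT1, a nuclear long noncoding RNA, took a further 1.83%. The other 48102 peaks shared 889311 reads, and the reads were spread over the transcript in another way than the peaks. Without those 2 genes, introns held 57.7% of the peaks and 24.5% of the summit reads. The 3′ UTRs held 15.4% of the peaks and 37.6% of the reads, and exons held 19.8% and 34.3%. The intergenic peaks, 5.74% of the peaks, had 2.15% of the reads.

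The make-up of the peaks by region shifted with their depth. Among the 18387 peaks of 3 to 5 IP reads, 70.4% were in introns and none had a q-value below 0.05. Among the 16648 peaks with at least 10 reads, introns held 35.4%, 3′ UTRs 30.8% and exons 29.6%. Among the 1445 peaks with at least 100 reads, introns held 1.45% (21 peaks), 3′ UTRs 55.6% and exons 41%. Of the 29 peaks with at least 1000 reads, 18 were in exons, 10 in 3′ UTRs and 1 in an intron. The median intron summit held 6 IP reads, against 10 in exons, 18.5 in 3′ UTRs, 8 in 5′ UTRs and 5 between genes. Input was at background at 74.3% of intron peaks and at 23% of 3′ UTR peaks, so the mature parts of transcripts also had more input. Median folds lay closer together, with 3.64 in 3′ UTRs, 3.58 in exons, 3.24 in introns and 5′ UTRs, and 2.95 between genes. With a q-value below 0.05 they were 5.20 in introns and 4.70 in 3′ UTRs, but that limit sets a least fold of 4.28 over background input, so neither order measures enrichment.

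**Figure D1:**
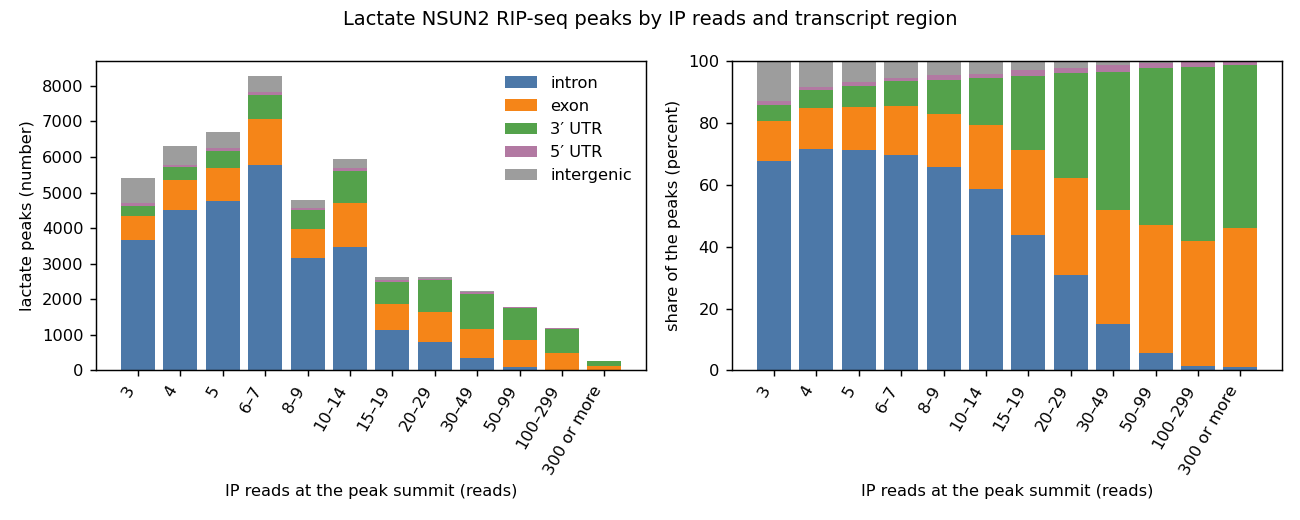
Lactate peaks by the number of IP reads at the summit (x axis, reads), as a number of peaks (left) and as a share in percent (right), stacked by transcript region. Introns made up 3655 of the 5394 peaks with 3 reads and 3 of the 258 peaks with 300 or more.

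**Figure D2:**
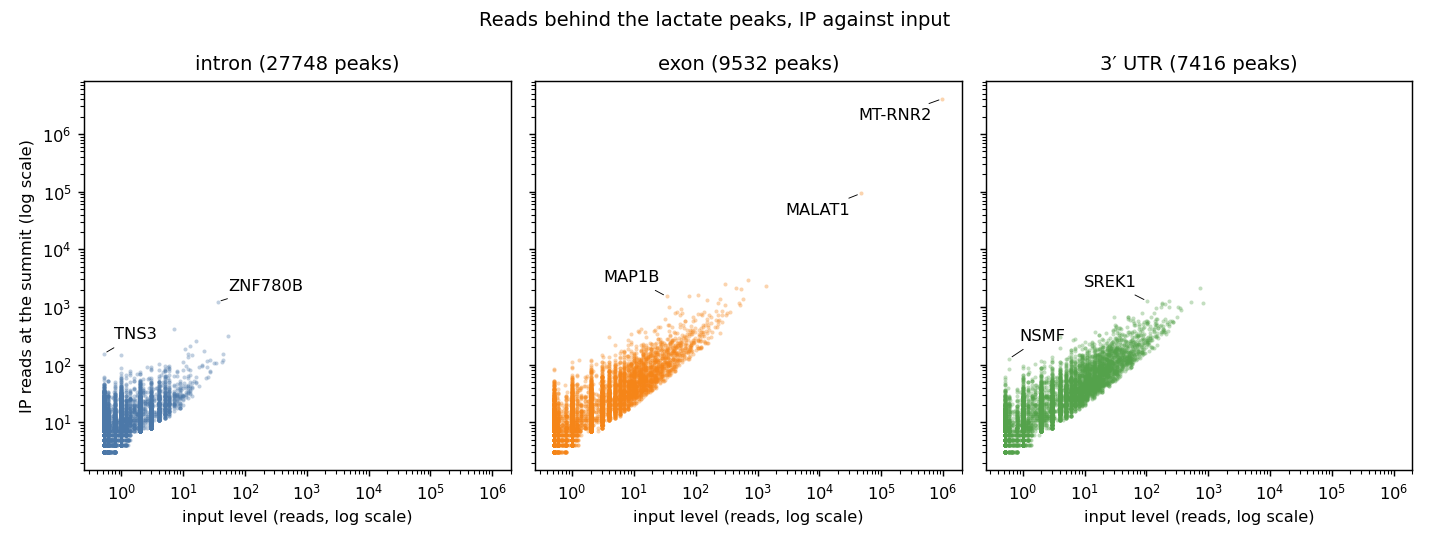
IP reads at the summit (y axis, log scale) against the input level there (x axis, reads, log scale), with 1 point per peak and 1 panel for introns, exons and 3′ UTRs. The dense column at the left of each panel is the background input of 0.517 reads, and MT-RNR2 and MALAT1 stand apart in the exon panel.

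The 10 peaks of highest score, the −log10 of the p-value, were led by abundant RNAs. MT-RNR2 had 4085155 IP reads over an input level of 977018 reads and a fold of 3.28. MALAT1 had 92946 IP reads over 46726 and a fold of 1.56, so its place came from its depth and not from its fold. The next was an exon peak of MAP1B, a microtubule-associated protein of neurons and their outgrowths, at chr5:72194710-72195667, with 1518 IP reads over 34.0 and a fold of 34.0. An intron peak of the zinc finger gene ZNF780B, 2691 bases long, had 1227 reads over 36 and a fold of 26.0. It was the 1 intron peak with over 1000 reads. Exon peaks followed in PRRC2C, an mRNA-binding protein of stress granules (1522 reads, fold 15.3), in LRRFIP1 (2458 reads, fold 6.36), in the chaperone gene HSP90AB1 (1584 reads, fold 11.4) and in MKI67, the proliferation marker Ki-67 (1002 reads, fold 20.7). A 3′ UTR peak of the splicing factor gene SREK1 had 1260 reads and a fold of 9.51. The tenth, in an exon of PMEPA1, a TGF-β target, had 939 reads and a fold of 12.7.

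The 10 peaks of highest fold, among those with a q-value below 0.05, were other peaks than these 10, and they rested on little input. The highest was an intron peak of the focal adhesion gene TNS3 at chr7:47338511-47339764, with 154 IP reads over background input and a fold of 80.2. A 3′ UTR peak of NSMF, a synapse-to-nucleus messenger, had 126 reads over 0.600 and a fold of 62.4. An intron peak of the cytolinker gene DST had 145 reads over 1.00 and a fold of 57.3. Exon peaks of MAP4K4, a kinase of stress signalling (305 reads, fold 48.0), of the histone methyltransferase KMT2B (83 reads, fold 43.5), of the Hippo cofactor VGLL4 (109 reads, fold 43.2), of the chromatin remodeller CHD5 (80 reads, fold 42.0) and of the acetyltransferase KAT6B (118 reads, fold 41) were also among them. So were 3′ UTR peaks of CACNG8, an auxiliary subunit of neuronal glutamate receptors (298 reads, fold 46.9), and of the Wnt coactivator BCL9L (83 reads, fold 41.3). The input level under these 10 summits was between 0.517 and 4.00 reads. In 8 of the 10 the 2000-base window held more IP reads than the summit, but it held 86 at MAP4K4 and 11 at CHD5, so the folds of these 2 peaks are uncertain.

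Across genes, 12114 genes carried at least 1 peak. Of these, 9783 were protein-coding, with 40883 peaks, and 1641 were lncRNA genes, with 3372 peaks. The median gene had 2 peaks, 5192 genes (42.9%) had 1, 1073 had at least 10 and 16 had at least 50. The 122 genes with most peaks, 1 percent of all, held 9.47% of the genic peaks. Of the protein-coding genes, 2234 (22.8%) had intron peaks alone, 3748 (38.3%) had none in an intron and 3801 (38.9%) had both. A peak with a q-value below 0.05 lay in 6891 of them (70.4%).

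SYT1, which encodes synaptotagmin 1, the calcium sensor of synaptic vesicle release, carried most peaks. Its 74 peaks covered 25533 bases, 4.34% of its RefSeq span of 588 kb on chromosome 12. Of the 74, 63 were in introns, 8 in exons, 2 in the 5′ UTR and 1 in the 3′ UTR, and 46 had a q-value below 0.05. Their folds ran from 1.88 to 17.7 with a median of 4.21, and their IP reads from 4 to 43 with a median of 11. At 31 of the 74 the input was at background. The best peak, at chr12:79131781-79132742 in an intron, had 33 IP reads over background. The peaks were spread along the gene from 1.09 to 586 kb after its start, and no stretch of 10 kb held more than 6. Among protein-coding genes ranked by IP reads summed over the summits, SYT1 came at place 59. None of the 20 genes with most peaks was among the 20 genes of any kind with most reads.

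The other 9 protein-coding genes of the top 10 had 54 to 60 peaks. ZC3H12B, a member of the family of regnase RNA-degrading enzymes, had 60 peaks over 25044 bases, 58 of them in introns, and 55 stood over background input. SBF2, a regulator of membrane lipids and RAB proteins, had 57 peaks, with a highest fold of 30.6. THSD4, a gene of the extracellular matrix, and APP, the amyloid precursor protein, had 56 each. APP had the shortest span of the 10, 291 kb, and so the most peaks per length, 19.3 per 100 kb. ASAP1, which acts on ARF proteins at the membrane, ZFAND3, and the kinase gene PRKCA had 55 each, of which 44, 54 and 53 were in introns. The highest summit in these 3 genes held 272 IP reads, in ASAP1. SLC35F3, a transporter gene, had 54 peaks with the highest median fold of the 10, 4.80, and 7 of its peaks lay within 10 kb from 285 kb after its start.

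DST differed in the place of its peaks. Of its 55 peaks, 33 were in exons and 22 in introns, and DST led all genes in exon peaks. Most exon peaks, 30 of 33, lay more than 300 kb after the gene's start, while the median intron peak lay at 173 kb. The peak of fold 57.3 at chr6:56784400-56785192 was in an intron, and the exon peak with most reads, 155, was 2283 bases long. By summed peak length SYT1, ZC3H12B, SLC35F3 and DST led, followed by EHBP1, an endocytosis adaptor, with 50 peaks over 20097 bases.

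Long genes carried more peaks. Among 9479 protein-coding genes with a RefSeq span, the Spearman correlation across genes between peaks and span was 0.56, where genes share 1 library and are not independent replicates. It was 0.66 for intron peaks and 0.04 for exon and UTR peaks, with genes that had none of that kind included. Genes under 10 kb had a median of 1 peak and 13.5% of their peaks in introns. Genes of 100 to 300 kb had a median of 6 peaks and 71.9% in introns, and genes over 300 kb had 7.5 and 86.4%. Per 100 kb the order turned, from a median of 22.6 peaks under 10 kb to 1.56 over 300 kb, among genes with at least 1 peak. Genes without a peak were left out, and 1 peak in a short gene already gives a high count per length. Much of this order was therefore set by the rule of counting and says little about the genes. None of the 20 protein-coding genes with most peaks was among the 20 with most peaks per length among genes with at least 10 peaks. Peaks outside the RefSeq span count in this measure. The list per length was led by CARD18 and ATP1B1, with 1 of 38 and 2 of 17 peaks inside their span. Its lack of overlap can therefore not be read as a trait of the genes.

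Genes were also ranked by their peaks in each part of the mature transcript. In 3′ UTRs, TTC3, a ubiquitin ligase, led with 23 peaks, of 34 in all, and its highest summit held 328 IP reads. ATRX, a chromatin remodeller, had 12, and SRGAP1, CAST and ZBTB20 had 10 each. SRGAP1 acts in Slit-Robo signalling, CAST encodes the calpain inhibitor calpastatin, and ZBTB20 a transcription factor. In exons, DST was followed by TPR, a nuclear pore protein (17 of 18 peaks), CEP350, a centrosome protein (16 of 22), PRRC2C (15 of 22) and CENPF, a kinetochore protein (15 of 15). The median summit held 87 IP reads in CENPF and 39.5 in PRRC2C, against 11 in SYT1. In 5′ UTRs, SPATS2L, ANKHD1, R3HDM2 and SUCO had 5 peaks each and CHD9 had 4.

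Among noncoding genes, the cancer-associated lncRNA PVT1 had most peaks, 46, of which 35 were in introns and 32 had a q-value below 0.05. One of its intron peaks was 1514 bases long and had 417 IP reads over 7, with a fold of 41, second among intron peaks by score. Of lncRNA exon peaks, that of NEAT1, the scaffold of paraspeckles, was 1969 bases long with 220 IP reads and a fold of 10.2, OIP5-AS1 had 248 reads and a fold of 7.24, and MEG8 had 158 and a fold of 11.4. LINC00511 had 43 peaks, of which 1 lay inside its RefSeq span, MIR4435-2HG 33, FTX, a gene of the X-inactivation centre, 32, and LINC01572 28. As a class, lncRNA peaks were somewhat shallower than protein-coding ones, with a median of 6 against 7 IP reads, and 35.6% against 44.6% had a q-value below 0.05. Introns held 64.4% of lncRNA peaks and exons 35.6%.

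Small noncoding RNA genes had 70 peaks on 70 genes, 0.146% (0.115 to 0.184%) of all peaks. They were 30 miscellaneous RNAs, 20 snRNAs, 12 snoRNAs, 6 microRNAs and 2 scaRNAs. No peak carried a tRNA label, and whether the annotation used could give one was not tested, so nothing follows about tRNAs. The highest score was on RN7SL220P, a copy of the signal recognition particle RNA, with 31 IP reads and a fold of 12.7. Y_RNA loci, named after their values were seen, had 18 IP reads at a fold of 9.96 on chromosome 1 and 32 at a fold of 5.22 on chromosome 9. Copies of a repeat family share sequence, so reads of such a locus may come from others. In the list of 13 vault, Y, 7SK, signal recognition particle and RNase RNAs, namely VTRNA1-1, VTRNA1-2, VTRNA1-3, VTRNA2-1, RNY1, RNY3, RNY4, RNY5, RN7SK, RN7SL1, RN7SL2, RMRP and RPPH1, none had a peak under that symbol. A share of up to 22.8% is within the counting interval of 0 in 13, and whether RNAs of this size were kept in these libraries was not tested. The share of all small noncoding RNA genes with a peak was not counted, so 0 in 13 cannot be set beside it.

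By chromosome, peaks followed genes with exceptions. Chromosome 1 held most, 4551 peaks or 9.46%, on 1166 genes. Chromosome 19 held 7.02% of the genes with a peak but 4.53% of the peaks, with 2.52 peaks per protein-coding gene that had a peak, the fewest of the numbered chromosomes, and 43.1% of its peaks in introns. Chromosome 15 had the most, 5.16 by the same count. Of the protein-coding genes of RefSeq, 55.2% had a peak on chromosome 18, 34.8% on X and 33.5% on 21. The mitochondrial genome had the 1 peak of MT-RNR2.

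Chromosome 19 also held the densest megabase. From chr19:39000001-40000000 there were 100 peaks on 20 genes, against a median of 15 over 2432 megabases with a peak. The genes named for it, chosen after their values were seen, were SUPT5H, a transcription elongation factor, with 16 peaks, SAMD4B, an RNA-binding protein, with 12, and the kinase gene PAK4 with 9. Its median summit held 17.5 IP reads, against 8 over the chromosome and 7 over all peaks. Its input was higher too, with a median level of 2 reads and background input at 22.0% of its peaks, against 59.8% over all peaks. The median fold was 3.66, against 3.24. From 38 to 41 Mb the chromosome held 38 of the 1445 peaks with at least 100 IP reads, and 7 of the 21 in introns, ZNF780B among them. PANC-1 cells are known to carry extra copies of chromosome 19 around AKT2. The part of copy number in these values was not tested. The next densest megabases were chr3:47000001-48000000 with 98 peaks, and chr11:66000001-67000000 and chr20:3000001-4000000 with 97 each, where median summits held 7 to 9 IP reads and at most 4 summits reached 100.

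The deposited annotation put 16673 peaks, 34.7% of all, on 3931 genes of 332 KEGG pathways, with a mean of 4.24 peaks per gene, once names spelled with GeneID in place of the letters id were joined to their pathway. By number of peaks, Pathways in cancer led with 1570 peaks on 309 genes, where PRKCA (55), the focal adhesion kinase gene PTK2 (30) and the RAS activator SOS1 (29) had most. Human papillomavirus infection (1069), Pathways of neurodegeneration (1057) and PI3K-Akt signaling (1048) followed. Endocytosis was the fifth with 978 peaks on 181 genes, where ASAP1 (55), AGAP1 (31), PARD3 (30) and EGFR (23) had most. Pathways share genes and differ in size. Per gene, among 250 pathways with at least 20 genes, Adherens junction led with 9.21 peaks per gene on 56 genes, headed by the phosphatase genes PTPRJ (33) and PTPRM (30), the polarity gene PARD3 (30) and TCF7L2 (26), with 74.6% in introns. Axon guidance had 6.18 on 119 genes, headed by PRKCA, PTK2, PARD3, and SRGAP1 and EFNA5 with 28 each, but its median gene had 2 peaks, as did the median annotated gene, and 68.1% of its genes had a peak with a q-value below 0.05, against 71.3%. The Neurotrophin signaling pathway had 4.96 on 95 genes, with a median of 3 and a peak with a q-value below 0.05 in 86.3% of them, and with SOS1, FOXO3 (20) and CAMK2D (17) among the leading genes.

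Ribosome stood at the other end of the 250, with 1.79 peaks per gene on 43 genes, with MRPS6 (8), MRPL19 (4) and MRPL28 (3) among the leading genes. Arginine and proline metabolism and Rheumatoid arthritis were next with 1.81 each on 26 genes. Oxidative phosphorylation had 2.1 on 51 genes, headed by COX10 (9), NDUFS4 (6), ATP6V1E2 and SDHC (5 each), and Glycolysis / Gluconeogenesis 2.59 on 29 genes, headed by PKM (8), PFKP (7), GPI and ENO1 (5 each). The Spliceosome genes had 3.18 on 80 genes, with THOC2 (16), DDX46 (11), PRPF6 and CDC5L (8 each), and 32.3% of their peaks in introns, against 61.5% over all annotated genes. The median span of the genes was 8.27 kb for Ribosome and 91.1 kb for Adherens junction. Across the 250 pathways, peaks per gene and median span had a Spearman correlation of 0.79, as a description over pathways that share genes.

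Of 20050 protein-coding symbols of RefSeq, 47.2% had a lactate peak, 33.4% had one with a q-value below 0.05, 28.4% had one with a fold of at least 4, 31.7% had one with at least 10 IP reads and 37.0% had one in an exon or UTR. These shares are the background for the lists that follow. A gene without a peak was not enriched over input at this depth, which does not mean that it was not expressed.

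Of 8 m5C methyltransferases, 6 had a peak (75%, 40.9 to 92.9%) and 3 had one in an exon or UTR. NSUN6 led with 7 intron peaks, among them the longest peak of the list, 5127 bases with 48 IP reads and a fold of 9.66. NSUN4, a mitochondrial enzyme, had 4 peaks, and NSUN5 and NSUN7 had 1 each. NSUN2 itself had 2 peaks, both in introns and 200 bases long, with 5 and 4 IP reads, folds of 3.24 and 2.58, and no q-value below 0.05. NOP2 and NSUN3 had none. Of 6 m5C readers and erasers, 4 had a peak. They were the oxygenases TET3 (7), TET2 (5) and TET1 (4) and the demethylase ALKBH1 (1), while the readers YBX1 and ALYREF had none.

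Of 15 genes for lactate handling and lactylation, 10 had a peak (66.7%, 41.7 to 84.8%), all 10 in an exon or UTR, and 9 had a peak with a q-value below 0.05. The acyltransferase gene EP300 had 10 peaks, 6 of them in exons, and the deacylase genes HDAC1 and HDAC2 had 8 and 4. AARS1, the alanyl-tRNA synthetase that acts as a lactyltransferase, also had 4. LDHA, LDHB, LDHC and LDHD, which make or use lactate, and the transporter gene SLC16A7 had no peak. Of other genes the paper names beside NSUN2, the glycolytic enzyme gene ENO1 had 5 peaks, led by 1007 IP reads over 325 in its 3′ UTR at a fold of 2.42. STUB1, a ubiquitin ligase gene, had none.

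CDCP1, a transmembrane protein of carcinoma cells, had 14 peaks, with 7 in introns, 4 in the 3′ UTR and 3 in exons, and 11 had a q-value below 0.05. Its exon peak at chr3:45088910-45089325 had 114 IP reads over 2 and a fold of 30.1, but its 2000-base window held 37 reads, so that summit and its fold are uncertain. The second exon peak, at a fold of 14.8, had 112 reads at the summit and 75 in the window. The 3′ UTR peak at chr3:45082286-45082873 had 209 reads at the summit and 405 in the window, over an input level of 71.0 reads and at a fold of 2.29. The other 3 peaks of its 3′ UTR had 22 to 24 IP reads and folds of 3.04 to 4.51. Its 7 intron peaks had 3 to 15 reads and folds of 2.21 to 7.89. STC1, a secreted hormone-like glycoprotein, had 2 peaks, with 15 IP reads over 2 in the 5′ UTR (fold 4.25) and 31 over 11 in the 3′ UTR (fold 2.11), and 1 of the 2 had a q-value below 0.05. FOSL1, a subunit of the AP-1 transcription factor, had 5 peaks. Its 3′ UTR peak had 256 IP reads over 66 and a fold of 3.01, and 3 of its 4 intron peaks had 32 to 66 reads with folds of 6.50 to 11.1.

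Genes of axon guidance were counted as ligands and receptors. Of 25 ligands, 15 had a peak (60%, 40.7 to 76.6%), 8 had one with a q-value below 0.05 (32.0%) and 12 had one in an exon or UTR (48.0%). EFNA5, an ephrin, had 28 peaks, of which 26 were in introns, followed by SEMA3C with 11, the netrin gene NTN4 with 10 and SEMA3A with 8. SEMA3B, SEMA3D, SEMA4A, SEMA5A, SEMA7A, NTN1, SLIT1, SLIT2, EFNA3 and EFNA4 had none. Of 28 receptors, 18 had a peak (64.3%, 45.8 to 79.3%), 11 with a q-value below 0.05 (39.3%) and 13 in an exon or UTR (46.4%). The semaphorin co-receptor gene NRP1 had 12, the Slit receptor gene ROBO1 had 11, EPHB2 had 10 and UNC5C had 5, and in these 4 genes most peaks were in introns. PLXNA3, PLXNA4, ROBO2, NEO1, UNC5A, UNC5B, EPHA1, EPHA4, EPHA7 and EPHB3 had none. For both lists the background of 47.2% lay inside the counting interval, so neither stood apart from protein-coding genes at large.

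In a list of neurotrophins, GDNF-family ligands, the receptors of both and neural adhesion genes, 4 of 18 genes had a peak (22.2%, 9 to 45.2%), against 47.2% of all protein-coding symbols. A peak with a q-value below 0.05 lay in 2 (11.1%) and one in an exon or UTR in 3 (16.7%), against 33.4% and 37.0%, and with 18 genes these shares are imprecise. The sorting receptor gene SORT1 had 2 peaks, and the receptor gene NTRK2, the ligand gene NRTN and the adhesion gene L1CAM had 1 each. The genes with none included BDNF, NTF3, NTRK3, NGFR, GDNF, RET and NCAM1.

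Marker genes of cell types were looked up as well. A peak is enrichment over input and not a level of expression, so these counts do not check the cell label. Of 10 markers of PANC-1 and ductal epithelium, 7 had a peak, led by the receptor kinase gene AXL with 10, KRT8 with 4, KRT18 with 2 and KRT7 with 1. The top summits of KRT8 and KRT18 held 1174 and 1194 IP reads. EPCAM, CDH1 and VIM had no peak. None of 8 acinar markers (among them PRSS1, CPA1, CELA3A and CTRB1) and none of 6 endocrine markers (INS, GCG, SST, PPY, CHGA and IAPP) had one. Of 6 immune markers, CD68 had 1 peak, and the others, among them PTPRC, CD3E and LYZ, had none. Of 6 fibroblast markers, COL1A1 and COL3A1 had 1 peak each, and COL1A2, DCN, LUM and PDGFRB had none. Of 6 neuron and Schwann cell markers, SYT1 had its 74 peaks, and the others, among them SNAP25, RBFOX3 and S100B, had none.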

How the data were processed

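RNA from 1 anti-NSUN2 IP and 1 input library of lactate-treated PANC-1 cells was analysed, beside 2 libraries of the ddH2O arm used for the totals and the window table alone. According to the submitters' processing notes, reads were handled with fastp 0.20.1, HISAT2 2.1.0, MACS2 2.2.7.1, bedtools 2.29.2, HOMER 4.11.1 and DiffBind on GRCh38, and the methods name MAnorm. The authors called peaks in the IP library over its input and deposited for each a fold enrichment, a −log10 p-value, a q-value and a length in bases. The authors also deposited rescaled read density (signal) in 2000-base windows of merged peaks for both IP libraries. The log2 ratio, mean log2 value and p-value columns of the same table hold the authors' own comparison and were not used. Read totals per library are not given in the sources used here.

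From these values, peaks, covered bases and genes were counted per gene, biotype, region, chromosome, megabase and KEGG pathway. In some deposited pathway names the letters id read GeneID, which was undone. After the data were seen, IP reads and input level at each summit were computed back from fold and p-value through the Poisson formula of the caller, with 0.784 as the scale of IP reads to input depth and a tolerance of 0.1% on −log10 p. On simulated peaks, 20000 in each of 3 settings, at least 99.96% of reads were given back. These peaks were made with the same formula, so they check the arithmetic and not whether the formula holds for the deposited peaks. Window reads were obtained by undoing the rescaling of the densities, and all windows came out whole within 0.02 reads plus 0.2%. Their comparison with the summit reads was added after the data were seen. Spans, promoters and microRNAs came from RefSeq GRCh38.p14, matched by symbol for 96.9% of protein-coding genes with a peak. Since each group had 1 library, no test was run, and the authors' q-value compares the reads of these 2 libraries, not conditions. Shares have 95% Wilson intervals for counting error only.

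The members and gene lists were chosen with earlier results of these data known. Named were the 10 protein-coding and 5 noncoding genes with most peaks, the 5 of largest summed length, the 5 with most peaks in each of 3′ UTR, 5′ UTR and exon, the 10 peaks of highest score and of highest fold, 4 members of each list and pathway, and genes the paper names. Some members of these lists and pathways are not reported here by name. Other genes and peaks were named after their values were seen: the leading peaks of noncoding classes, microRNAs, promoters and the dense megabase. Alternatives were a q-value below 0.05, a fold of at least 4, at least 10 IP reads, bases in place of peaks, and other rankings. The work was done in Python 3.11.15 with scipy 1.17.1 for intervals, pandas 2.3.3 and numpy 2.4.6 for tables, and matplotlib 3.10.9 for plots.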

Additional observations from a re-analysis of the deposited data

How the results depend on the processing

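Of 51 values under alternative settings, 20 stayed within the counting interval or 1.5 times of the value given and 31 did not. With a q-value below 0.05, a fold of at least 4 or at least 10 IP reads, the share of intron peaks was 46.9%, 53.9% and 35.4% in place of 57.7%, and by covered bases it was 54.4%. The 3′ UTR share was 23.5%, 18.6% and 30.8% in place of 15.4%, and 17.8% by bases. The lncRNA share was 5.85%, 6.29% and 5.08% in place of 7.01%, and that of chromosome 1 was 10.02%, 9.95% and 10.1% in place of 9.46%. Genes with a peak numbered 7894, 6753 and 7315 in place of 12114. With a q-value below 0.05 and with at least 10 reads, the median fold was 4.70 and 4.18 in 3′ UTRs and 5.20 and 5.99 in introns. Both limits set a least fold for peaks over background input, 4.28 for the q-value, and most intron peaks are of that kind, so the order of these medians says nothing about enrichment. Of the 20 genes with most peaks, 16 were found again with a q-value below 0.05, 14 with at least 10 reads and 18 by summed length, but 0 by peaks per kb and 0 by summed IP reads. The ranking per kb puts short genes and genes with peaks outside their span first, so its 0 cannot be interpreted. The share of axon guidance ligands with a peak was 32%, 28% and 28% in place of 60%, and of receptors 39.3%, 39.3% and 28.6% in place of 64.3%, while that of all protein-coding symbols was 33.4%, 28.4% and 31.7% in place of 47.2%. Under the same limits, in the same order, the share of lactate handling genes was 60%, 40% and 66.7% in place of 66.7%. That of ductal markers was 50%, 30% and 60% in place of 70%. Of these limits, only the fold of at least 4 took either share outside its counting interval. The limit of 10 reads and the ranking by summed reads were chosen after seeing the data. No paired analysis was possible because there was 1 library per group, and no test was run. Most peaks were shallow, with a median of 7 IP reads at the summit, and 1 library per group leaves the spread between cultures unknown.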

Other observations

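The genes below were chosen after their values were seen. Among protein-coding genes ranked by IP reads summed over their summits, NUCKS1, a chromatin-associated DNA repair factor, led with 6505 reads over 9 peaks, 7 of them in exons. FBL, the nucleolar methyltransferase fibrillarin, had 3340 and HSP90AA1, a chaperone gene, 3204. LUC7L3 (3012) and SRSF11 (2336), both splicing factor genes, LRRFIP1 (2806), RAB31 (2608), PRRC2C (2409), the stress-response transcription factor gene ATF4 (2263) and TTC3 (2252) followed. Input differed widely between these genes, so the order is one of reads and not of enrichment. Summed over the summits, the input level was 1450 reads in NUCKS1, 846 in FBL and 222 in PRRC2C. ATF4 had 1 peak, with 2263 IP reads over 1378 and a fold of 1.29. SYT1, first by number of peaks, had 1028 reads, and ZC3H12B, second by number, had 535 and stood at place 202.

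Peaks on pseudogenes, 945 on 550 genes, were led by LRRFIP1P1 with 477 IP reads at a fold of 10.4. HSP90AB3P had 141 at a fold of 7.44. How reads were split between such copies and their near-identical parent genes, LRRFIP1 and HSP90AB1 among them, is not given in the sources used here, so the values of both are uncertain. RPL13AP5 had 349 reads and a fold of 5.38, and ITGB1P1 had 189 and a fold of 7.46.

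Of 39849 peaks on protein-coding genes with a RefSeq span, 991 (2.49%) lay outside it, and 8955 of 9479 genes had none outside. In 7 genes at least 10 peaks lay outside. CARD18, an inflammasome regulator, had 38 peaks, of which 37 lay outside its span of 2.06 kb, and ATP1B1, a sodium pump subunit, had 15 of 17 outside. Peaks per length of these genes cannot be interpreted.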
